A study of Homo sapiens with 6 samples.

Results

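The genes described here encode cytokines, chemokines, members of the TNF family, their receptors and the sensors and feedback inhibitors that belong to them, in human bladder carcinoma cells before and after the acquisition of drug resistance. They were chosen by symbol among the protein-coding genes of the deposited table, namely those starting with CXCL, CXCR, CCL or CCR and a digit, CX3C, IL and a digit, TNFSF, TNFRSF, TNFAIP, CSF, IFN, TLR, NLR, SOCS or IRF. The rule found 33 of the 2462 genes of the table, of which 1924 were protein coding. They comprised 14 ligands, 14 receptors, 2 Toll-like receptors, 2 SOCS genes and 1 secreted enzyme, IL4I1. No gene named CXCR, CCL, CX3C, TNFAIP, NLR or IRF was listed.

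RNA was sequenced from 3 libraries of T24, a human urothelial carcinoma line, and 3 of T24DDP, the subline called T24-R in the study, which was grown out of T24 by repeated exposure to rising concentrations of cisplatin and gemcitabine. No other genotype, age or treatment is named between the groups. The induction took about 1 year, and neither parallel culture of T24 nor drug exposure of T24DDP at harvest is stated. The resistant cells are 1 subline of 1 parental line, so that changes particular to this subline and changes shared by resistant cells cannot be told apart. The study's general statistics note calls its replicates independent, but neither the labels nor the sequencing methods say how these libraries were grown, and the p-values measure only the spread between them. The table held only genes that the authors had already found to differ in this same contrast, each at an absolute log2 fold change above 1.00, so that a gene not listed is a gene without a value here and not an unchanged gene. A fold change describes the mixture of cells in a culture, in which fewer cells of a type and less RNA per cell cannot be told apart.

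Cytokines are secreted or membrane-bound proteins through which cells call leukocytes, drive inflammation and steer growth and survival, and each acts only on cells that carry its receptor. Interleukin-1 and TNF family receptors and the Toll-like receptors signal largely through NF-kB and AP-1, whereas most interleukin and interferon receptors signal through JAK kinases and STAT factors, which SOCS proteins restrain. In the bladder, urothelial cells and carcinoma lines derived from them are known sources of IL-6, IL-8 family chemokines and GM-CSF.

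The upstream sequences of 4 genes are given first, because CXCL5 and CXCL6 are neighbouring chemokine genes that went in opposite directions, IL6 is the classical NF-kB target of the set, and TNFRSF9 is a receptor with the same 11-base match. The capitals mark the match to the NF-kB consensus. Each sequence is the 250 bases before the RefSeq transcription start in GRCh38.p14, read 5′ to 3′ on the strand of the gene, at chr4:73998678-73998927 on the minus strand for CXCL5, chr4:73836428-73836677 on the plus strand for CXCL6, chr7:22726950-22727199 on the plus strand for IL6 and chr1:7940840-7941089 on the minus strand for TNFRSF9.
CXCL5: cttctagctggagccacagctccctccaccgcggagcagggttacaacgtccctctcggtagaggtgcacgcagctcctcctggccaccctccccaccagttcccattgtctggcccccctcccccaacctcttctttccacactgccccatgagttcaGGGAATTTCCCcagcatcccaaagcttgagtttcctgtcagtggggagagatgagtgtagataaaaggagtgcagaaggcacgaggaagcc
CXCL6: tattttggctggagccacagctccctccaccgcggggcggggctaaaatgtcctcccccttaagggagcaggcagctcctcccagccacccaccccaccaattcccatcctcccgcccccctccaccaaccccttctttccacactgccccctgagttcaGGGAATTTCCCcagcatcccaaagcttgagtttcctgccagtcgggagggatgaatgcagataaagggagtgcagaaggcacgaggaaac
IL6: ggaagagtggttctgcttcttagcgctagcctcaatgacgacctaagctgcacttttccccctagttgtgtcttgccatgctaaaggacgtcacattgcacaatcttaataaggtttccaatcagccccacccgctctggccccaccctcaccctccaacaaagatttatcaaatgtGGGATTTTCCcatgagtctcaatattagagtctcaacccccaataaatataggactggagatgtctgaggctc
TNFRSF9: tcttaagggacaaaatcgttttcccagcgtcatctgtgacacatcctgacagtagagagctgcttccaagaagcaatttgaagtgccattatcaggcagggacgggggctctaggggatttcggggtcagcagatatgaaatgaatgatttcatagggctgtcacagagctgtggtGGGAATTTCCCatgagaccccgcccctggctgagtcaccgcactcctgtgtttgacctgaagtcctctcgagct

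The windows of CXCL5 and CXCL6, taken from 250 bases before to 50 bases after the start, were identical at 251 of 302 aligned columns (83.1%), and the match GGGAATTTCCC stood at nearly the same place, starting 91 and 90 bases before the start. In TNFRSF9 the same letters started 74 bases before it, and in IL6 a 10-base match started 73 bases before it. Such windows were found for 26 of the 33 genes. The NF-kB consensus, searched on both strands, was present in 8 of them (30.8%), namely CXCL5, CXCL6, IL12A, IL1RAPL1, IL22RA1, IL6, SOCS1 and TNFRSF9, and in 11.3% of all 35116 promoter windows of the same length. The AP-1 motif TGANTCA was present in 7 (26.9%, against 7.71% of all windows) and the STAT motif TTCNNNGAA in 6 (23.1%, against 7.66%). The interferon motif, GAAA repeated after a gap of 2 bases, was found in 3 (11.5%, against 3.57%), and TATAAA in 1 (3.85%, against 11.5%). These are matches of letters and do not show that a factor was bound. Each of the 26 genes had 1 window, whereas the 35116 were not reduced to 1 per gene. CXCL5 and CXCL6 counted separately despite their likeness, and in both the STAT match overlapped the NF-kB match. The windows of IL6, TNFRSF9, IL1RL1 and TNFSF15 lay inside the genes as listed, at RefSeq starts within them. Genes with an NF-kB match stood on both sides of the comparison, since CXCL5 and IL12A were lower in T24DDP and the other 6 had positive fold changes, of which those of IL6 and IL1RAPL1 turned negative with TMM factors.

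All values below are scaled counts, that is, reads per gene after division by the size factor of the library, which ran from 0.939 to 1.03 in T24 and from 1.00 to 1.08 in T24DDP. The listed genes took 1231104 to 1269678 reads in the T24 libraries and 1170731 to 1411926 in the T24DDP libraries. T24DDP replicate 3 stood apart from replicates 1 and 2, and values without it are given where it decides a call. A gene was called at a limma adjusted p under 0.05 (Benjamini-Hochberg, two-sided, over 2462 genes) with an absolute log2 fold change above 1, on log2(scaled count + 1), a scale that understates the change of low genes. Fold changes are T24DDP over T24, with their SE and n = 3 per group.

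Of the 33 genes, 21 were called higher in T24DDP, 11 were called lower and 1, IL6, was not called. Among the ligands 9 were higher and 4 lower, and among the receptors 8 were higher and 6 lower. The table was selected on this contrast, and 98.3% of all its genes were called, 69.2% higher and 29.2% lower, so that the calls describe the genes and give no evidence that they moved more than others. The edgeR quasi-likelihood test on the read counts called all 33 (99.9% of the table), and so did DESeq2 (2461 of the 2462 genes, which rounds to 100%). A stricter test against a log2 fold change of 1 (limma treat) left 13 higher and 6 lower, against 52.7% of the table in both directions together. The scaled counts of the groups did not overlap for any of the 33 genes, which held for 99.1% of the table. The median log2 fold change was 1.47 over the 33 genes (1.40 with genes at the floor of 3 reads set at their bound), 1.35 over the ligands and 1.21 over the receptors, beside 1.41 over the whole table.

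The directions of the smaller increases depended on the scaling. TMM factors computed on the listed genes moved the table's median by -1.32 on the log2 scale, and 8 of the 33 genes were then called higher and 11 lower, where the table had 23.8% called higher and 29.3% lower. Relative to that scaling the ligands had 3 calls higher and 4 lower, and the receptors 4 higher and 6 lower. The fold changes of IL1B, IL6, TNFSF13, TNFRSF21 and IL1RAPL1 turned negative under TMM. On the deposited scaling they lay between 0.99 and 1.29, below the size of that shift, which was enough to turn their sign. TMM is therefore no test of these increases either, and they are given on the scaling as deposited only. CSF2, CXCL6, IFNLR1, IL11, IL17RE, IL1A, IL4I1, TLR1 and TLR6 kept a positive sign but lost their calls. All 11 genes that were lower stayed lower. TMM factors lowered the fold changes of all 33 genes, so that a negative sign could not turn. This is therefore no test of the decreases. TMM assumes that most listed genes do not change, an assumption that a table of selected genes does not meet, and it was kept as an alternative.

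Among the ligands, both interleukin-1 genes and IL6 had positive fold changes in T24DDP, IL1B and IL6 on the deposited scaling only, and the call of IL1A too was lost with TMM factors. IL1A, which encodes the alarmin form of interleukin-1 that is active without processing, had 526, 536 and 537 in T24 and 1764, 1699 and 1551 in T24DDP. All T24DDP libraries lay above all T24 libraries, by 3.14-fold on the means (log2 fold change 1.64 ± 0.10, limma adjusted p = 2.36e-06, and 0.29 on the log2 scale with TMM factors). IL1B, the secreted form that needs cleavage by caspase-1, had scaled counts of 2250.2, 2161 and 2185 in T24 and 5388, 5192 and 3791 in T24DDP. It was higher on the deposited scaling, with replicate 3 the lowest of the resistant libraries (log2 fold change 1.11 ± 0.15, and -0.25 with TMM factors). For IL6, the acute-phase cytokine that signals through STAT3, the libraries gave 730.2, 745 and 699.8 in T24 and 1897, 1866 and 847 in T24DDP. Replicate 3 of T24DDP lay just above the T24 libraries and well below the other two, and the log2 fold change of 0.99 ± 0.28 (limma adjusted p = 0.00734) missed the fold threshold. It was 1.38 without T24DDP replicate 3 and -0.36 with TMM factors, and both count tests called it.

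CSF2 and IL11 were higher as well. CSF2 encodes GM-CSF, the growth factor for granulocytes and macrophages, and had 121, 139.9 and 105 in T24 and 820.3, 782 and 208 in T24DDP. Replicates 1 and 2 of T24DDP were far above T24 and replicate 3 only modestly so (log2 fold change 2.07 ± 0.47, limma adjusted p = 0.00228, and 2.72 on the log2 scale without replicate 3), and the call was lost with TMM factors (0.72). IL11, an IL-6 family cytokine known in fibrosis and epithelial repair, went from 54.1 ± 8.57 to 249 ± 54.8 (SD, n = 3). Its libraries read 55.4, 44.9 and 61.9 in T24 and 305, 247 and 196 in T24DDP, so every resistant library was at least 3 times the highest T24 library (log2 fold change 2.17 ± 0.21, limma adjusted p = 1.77e-05, and 0.83 with TMM factors, no longer called).

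Of the 3 CXC chemokines, CXCL5 was lower and CXCL6 and CXCL16 were higher. CXCL5 (chr4:73995642-73998779 in the table's coordinates), a neutrophil chemoattractant that acts through CXCR2, had 289.5, 298 and 342 in T24 and 0 in all 3 T24DDP libraries. No resistant library had a read of it, which made it at least 107-fold lower against a floor of 3 reads per library. Of its exonic bases 17.3% lie opposite an unnamed gene on the other strand. Its neighbour and close relative CXCL6, which acts on the same receptor class and was named after its values were seen, had 25.5, 34.7 and 23.2 in T24 and 81.8, 104 and 54.8 in T24DDP and was higher (log2 fold change 1.47 ± 0.28, and 0.15 with TMM factors, no longer called). CXCL16, a membrane-anchored chemokine that also serves as a scavenger receptor and binds CXCR6, had 22.4, 17.4 and 11.6 in T24 and 116, 117 and 101 in T24DDP. All its resistant libraries stood several-fold above the T24 libraries (6.50-fold on the means, log2 fold change 2.67 ± 0.26, limma adjusted p = 2.11e-05), and it was still called with TMM factors (1.36).

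Among the interleukins that fell, IL18 was by far the most abundant. This IL-1 family cytokine, stored as a precursor in epithelia and known for inducing interferon gamma in lymphocytes, had 1329, 1292 and 1148 in T24 and 468, 389 and 428 in T24DDP. The resistant libraries lay close together and all below the parental ones (2.93-fold lower on the means, log2 fold change -1.55 ± 0.12, limma adjusted p = 5.90e-06). IL24, an IL-10 family cytokine, had 80.9, 60.3 and 59.0 in T24 and 15.0, 26.8 and 8.81 in T24DDP (log2 fold change -2.04 ± 0.38). Of the exonic bases of IL24, 41.6% lie opposite those of FCMR on the other strand, and since the strand setting of the counting is not given in the sources used here, their reads cannot be told apart. FCMR, named for this reason, was lower as well (log2 fold change -1.35). IL12A, the alpha subunit of IL-12, was the remaining ligand that fell, with means under 100 scaled counts in both groups (log2 fold change -1.46 ± 0.35).

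The 3 genes named TNFSF were low but higher in T24DDP, TNFSF13 on the deposited scaling only. TNFSF15, a ligand of death receptor DR3, had 0 in all 3 T24 libraries and 5.99, 8.31 and 19.6 in T24DDP. It was detected only in T24DDP, at least 3.70-fold above the floor, and its resistant values spread more than 3-fold. TNFSF8, the CD30 ligand, and TNFSF13, the B-cell factor APRIL, had means of 40.6 and 54.1 in T24DDP and of 4.37 and 22.0 in T24 (log2 fold changes 3.04 and 1.23). The increase of TNFSF13 did not keep its sign with TMM factors (-0.083), and 55.5% of its exonic bases are shared with the read-through gene TNFSF12-TNFSF13, which makes its count uncertain.

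TNFRSF11B had the highest fitted fold change of the 33 genes. It encodes osteoprotegerin, a secreted decoy receptor that captures RANKL and TRAIL. Its scaled counts were 20.2, 22.5 and 16.5 in T24 and 826, 716 and 606 in T24DDP. The 3 resistant libraries were far above the parental ones and close to each other (36.3-fold on the means, log2 fold change 5.11 ± 0.18, limma adjusted p = 1.45e-07), and the fold change was 3.79 with TMM factors. TNFRSF21, death receptor 6, had 91.5, 99.1 and 104 in T24 and 186, 222 and 248 in T24DDP. All resistant libraries were higher on the deposited scaling (log2 fold change 1.14 ± 0.15), but the sign turned with TMM factors (-0.21). TNFRSF9, the costimulatory receptor 4-1BB, was named after its values were seen and had 6.39, 9.19 and 8.71 in T24 and 61.9, 50.8 and 66.6 in T24DDP (log2 fold change 2.74 ± 0.26, and 1.47 with TMM factors).

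IL13RA2 was the most abundant receptor in T24. It binds IL-13 with high affinity, is widely regarded as a decoy and is known as a tumour antigen. Its libraries had 953, 834 and 785 in T24 and 243, 219.8 and 223 in T24DDP. The resistant libraries were tightly grouped at a lower level (3.74-fold lower on the means, log2 fold change -1.90 ± 0.12, limma adjusted p = 2.58e-06). IL11RA, the binding chain for IL-11, had 91.5, 108 and 101 in T24 and 56.9, 54.5 and 37.2 in T24DDP. It was lower in all resistant libraries, but the call rested on single libraries, with log2 fold changes of -1.02 in all 6, -0.83 without T24DDP replicate 3 and -0.96 without T24 replicate 2. IL11RA also shares 32.5% of its exonic bases with an unnamed gene on the same strand.

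The interferon receptor chains went in opposite directions. IFNLR1, the specific chain of the type III (lambda) interferon receptor that is found mainly on epithelia, had 25.5, 28.6 and 37.7 in T24 and 127, 128 and 109.7 in T24DDP (3.97-fold higher on the means, log2 fold change 1.97 ± 0.21, limma adjusted p = 3.01e-05). The resistant libraries were alike, and the fold change remained positive but uncalled with TMM factors (0.64). IFNAR2, a chain of the type I interferon receptor, was low in both groups, at 35.4 ± 4.84 and 15.8 ± 5.67 (SD, n = 3). Its call as lower (log2 fold change -1.16 ± 0.31) was lost without T24DDP replicate 3 (-0.93), and it shares 14.7% of its exonic bases with a read-through gene on the same strand.

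Receptors of the interleukin-1 family were lower, apart from 1. IL1RL2, the receptor for IL-36, had 31.9, 24.5 and 30.0 in T24 and 0 in all 3 T24DDP libraries. IL1RL1, the IL-33 receptor ST2, had 7.45, 13.3 and 6.77 in T24 and 0 in all 3 T24DDP libraries. Neither gave a single read in T24DDP, which made them at least 9.93-fold and 3.16-fold lower against the floor. IL18R1, the binding chain for IL-18, had 33.0, 26.6 and 25.2 in T24 and 9.98, 10.2 and 3.92 in T24DDP (log2 fold change -1.78 ± 0.37). The exception was IL1RAPL1, an X-linked member of the family known from synapse formation, with 85.2, 99.1 and 95.8 in T24 and 204, 183 and 321 in T24DDP. It was higher in all resistant libraries (log2 fold change 1.29 ± 0.22), but not with TMM factors (-0.057).

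The remaining receptors were low. CCR2, the receptor for the monocyte chemoattractant CCL2, had 0 in all 3 T24 libraries and 6.99, 7.39 and 9.79 in T24DDP, at least 2.64-fold higher than the floor. IL22RA1, a chain of the receptors for IL-20, IL-22 and IL-24, had 2.13, 1.02 and 4.84 in T24 and 27.9, 22.2 and 38.2 in T24DDP, or 1 to 5 reads per T24 library (log2 fold change 3.16 ± 0.43). IL17RE, the IL-17C receptor chain, went from 6.74 ± 2.47 to 28.2 ± 11.1 (SD, n = 3, log2 fold change 1.88 ± 0.40), a call lost with TMM factors (0.64) and with treat. At such counts the direction was the same in every library, but the size of each fold is loose.

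Toll-like receptors TLR6 and TLR1, which pair with TLR2 to recognise bacterial lipopeptides, were both higher. TLR6 had 67.1, 58.2 and 107 in T24 and 240.5, 271 and 347 in T24DDP (3.69-fold on the means, log2 fold change 1.90 ± 0.24). TLR1, named after its values were seen, had only 1 to 8 reads in T24 libraries, with scaled counts of 1.06, 8.17 and 2.90 in T24 and 15.0, 16.6 and 20.6 in T24DDP (log2 fold change 2.12 ± 0.51). TLR6 and TLR1 are paralogs that share 4.51% and 5.33% of their 50-base words with other genes, mainly each other, and neither was called with TMM factors (0.56 and 0.98).

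The SOCS genes, which encode feedback inhibitors of JAK-STAT signalling, moved apart. SOCS3, the inhibitor of IL-6 type receptors, had 1119, 1102 and 1085 in T24 and 583, 599 and 308 in T24DDP. Every resistant library was lower (log2 fold change -1.21 ± 0.24, limma adjusted p = 0.00101), although the fold threshold was missed without T24DDP replicate 3 (-0.90). SOCS1, the inhibitor of interferon signalling, was named after its values were seen and had 14.9, 14.3 and 7.74 in T24 and 105, 85.9 and 44.1 in T24DDP. It was higher (6.35-fold on the means, log2 fold change 2.54 ± 0.38) and still called with TMM factors (1.24). IL4I1, a secreted amino acid oxidase named for its induction by IL-4, went from 16.7 ± 3.48 to 53.3 ± 12.3 (SD, n = 3, log2 fold change 1.61 ± 0.28), a call lost with TMM factors (0.31), and 13.5% of its exonic bases are shared with NUP62.

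Levels were compared between genes as scaled counts per kb of listed gene length. IL1B was the highest in both groups, with 710.2 ± 15.0 per kb in T24 and 1547 ± 281 in T24DDP (SD, n = 3). In T24 the next were IL13RA2 (527 ± 53.1), IL18 (478 ± 36.5), SOCS3 (403 ± 6.18), IL6 (350.4 ± 11.1), IL1A (251 ± 2.97), CSF2 (155 ± 22.5) and CXCL5 (122 ± 11.0). In that order IL13RA2 and IL18 differed by less than the sum of their SDs, and so did CSF2 and CXCL5. In T24DDP the levels after IL1B were those of IL1A (787 ± 51.4), CSF2 (767 ± 436) and IL6 (743 ± 289), which were not separated given the SDs of CSF2 and IL6. TNFRSF11B moved from rank 20 (6.97 ± 1.08 per kb) to rank 5 (253 ± 38.9 per kb), while IL13RA2 moved from rank 2 to rank 8 (141 ± 7.86 per kb) and CXCL5 from rank 8 to no read at all. These ranks are loose. In T24DDP neither TNFRSF11B nor IL13RA2 was separated from SOCS3 (182 ± 59.8), nor IL13RA2 from IL18 (163 ± 15.1). In T24 TNFRSF11B was not separated from SOCS1 (6.86 ± 2.21).

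For 3 ligands the table also held a receptor chain. IL11 was higher (2.17 on the log2 scale, a call lost with TMM factors) while IL11RA was lower (-1.02, a call that single libraries decided). IL18 and IL18R1 were both lower (-1.55 and -1.78). IL24 was lower (-2.04) and IL22RA1 higher (3.16). The receptor of IL-1 (IL1R1), that of IL-6 (IL6R) and that of GM-CSF (CSF2RA) were not listed and have no value here.

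Many of the genes stood beside each other in the genome. Within 500 kb, 13 of the 33 had another of the 33 as a neighbour, in 6 groups and 8 pairs, and in 7 of the 8 pairs both went the same way on the deposited scaling, beside 82.5% of all 3598 pairs of listed genes within that distance. IL1RL2, IL1RL1 and IL18R1 (chr2:102186973-102398775) were all lower, and IL1RL1 and IL18R1 overlap and share 1.65% and 2.11% of their exonic bases. IL1A and IL1B (chr2:112773915-112836903) were both higher, IL1B on the deposited scaling only. IL22RA1 and IFNLR1 (chr1:24119771-24187959) were higher, and so was MYOM3, a muscle structural gene 7.60 kb from IL22RA1, at a log2 fold change of 5.67. TLR1 and TLR6 (chr4:38790677-38856817) and TNFSF15 and TNFSF8 (chr9:114784635-114930595) were higher as pairs. CXCL6 and CXCL5 (chr4:73836497-73998779), 147 kb apart, were the only pair in opposite directions. The nearest listed gene outside the set went the same way for 21 of the 27 genes that had one, and over the whole table the nearest listed gene did so for 79.3% of 1894 genes, so that neither count sets these loci apart. All 6 listed genes around IL11RA were lower, from -1.18 to -1.80 on the log2 scale. Such a run was not particular to this locus, since all listed genes around IL17RE, IL11 and CXCL16 were higher on the deposited scaling.

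The library of T24DDP replicate 3 stood apart from replicates 1 and 2. Of the 30 genes above the floor in T24DDP, its scaled count was below the mean of the other two by more than 1.5-fold in 12 (40.0%) and above it in 3 (10.0%), against 18.7% and 10.6% of 2368 listed genes, with no test of this difference. The median ratio was 0.751 for the 30 genes and 0.964 for the table. CSF2 had the lowest ratio (0.259), followed by IL18R1 (0.389), IL24 (0.422), IL6 (0.450), IL17RE (0.455) and SOCS1 (0.462). TNFSF15 (2.74), IL1RAPL1 (1.66) and IL22RA1 (1.52) were above 1.5. Both genes that rose and genes that fell were among the low ones. Without this library 22 genes were called higher and 8 lower, IL6 being added and IL11RA, IFNAR2 and SOCS3 lost. The whole table also lost calls, with 1628 genes higher and 571 lower, from 1703 and 718.

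Genes that act with these families but carry other symbols were taken from lists of known members. Of 49 cytokines and receptors with other symbols 11 were listed, 9 higher and 2 lower. TNF itself, the founding ligand of its family, had 391, 448 and 397 in T24 and 1187, 1082 and 544 in T24DDP, higher on the deposited scaling only (log2 fold change 1.11 ± 0.27, and -0.24 with TMM factors). NGFR, the neurotrophin receptor of the TNF receptor family, had 0 in all 3 T24 libraries and 117, 97.9 and 66.6 in T24DDP, at least 30.7-fold higher against the floor.

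On the other side, KITLG, the stem cell factor, had 1307, 1334 and 1448 in T24 and 193, 188 and 292 in T24DDP (6.08-fold lower on the means). CD74, the MHC class II invariant chain and receptor for MIF, had 184, 198 and 187 in T24 and 2.99, 4.62 and 0.979 in T24DDP, which left at most 5 reads in a resistant library (66.2-fold lower on the means). EBI3, the subunit that IL-27 and IL-35 share, rose with a log2 fold change of 2.56 ± 0.47 (1.31 with TMM factors). It had 6, 4 and 8 reads in T24 libraries and 58, 62 and 19 in T24DDP libraries, replicate 3 being the lowest. EDA, EDA2R, LTB, CCRL2 and EPOR were called higher too. With TMM factors EDA (0.33) and LTB (0.89) fell under the fold threshold, and EPOR had the opposite sign (-0.13). EDA2R had 0 reads in T24 libraries and 2 to 6 in T24DDP libraries. LTB had 2 to 3 reads in T24 libraries and CCRL2 had 3 to 4.

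Signalling genes were read from the same kind of lists, and those not listed have no value here. Of 17 NF-kB subunits and inhibitors 2 were, REL (1.06 ± 0.45, but -0.27 with TMM factors) and the kinase scaffold IKBKG, which was lower (-1.10 ± 0.23). Of 30 adaptors of TNF and Toll-like receptors 3 were, the apoptosis inhibitor BIRC3 (1.39 ± 0.14, but 0.039 with TMM factors) and the kinase IRAK2 (1.25 ± 0.14, but -0.10 with TMM factors) being called higher and TRAF1 (0.98 ± 0.25, but -0.36 with TMM factors) not called. None of 18 JAK and STAT genes and none of 10 inflammasome partners was listed. Of 43 interferon-stimulated genes 5 were, with ISG20 (2.02) and GBP4 (1.99) higher and PARP9 (-1.34), GBP3 (-1.25) and USP18 (-1.35) lower. With TMM factors ISG20 (0.68) and GBP4 (0.77) fell under the fold threshold, and GBP4 had only 3 to 7 reads in T24 libraries.

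The labelled cell type could be checked only on listed genes. Of 18 urothelial markers 3 were listed, and they did not move together. KRT19, a keratin of simple and urothelial epithelium, had 203, 171 and 148 in T24 and 0, 0 and 0.979 in T24DDP. PPARG, a driver of luminal urothelial differentiation, had 1377, 1219 and 1249 in T24 and 363, 395 and 434 in T24DDP, whereas GATA3, its luminal partner, had 2.13, 3.06 and 0 in T24 and 35.9, 48.0 and 43.1 in T24DDP. None of 13 leukocyte markers was listed, and COL1A1 (1 of 6 fibroblast markers, 5.61-fold higher) and PECAM1 (1 of 4 endothelial markers, 0 to 4 reads in T24) were higher. Whether these marker changes have a part in the cytokine values was not tested.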

How the data were processed

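Total RNA of 3 T24 and 3 T24DDP libraries was sequenced. Per the study's methods, the authors trimmed reads with fastp, aligned them with HISAT2 to GRCh38, counted genes with featureCounts and tested them with DESeq2. The labels' extraction text names retina and their build is mm9, whereas the gene identifiers and coordinates are human, and all 33 genes overlapped the same symbol in GENCODE for GRCh38. The annotation and the strand setting are not given in the sources used here. The deposited values are counts divided by 1 size factor per library (unit signal, called scaled counts), and every value was a whole number of reads within 0.001. The table also holds the authors' log2 fold changes and adjusted p-values from their own comparison, which were read to find how genes had been selected and used nowhere else.

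limma 3.58.1 in R 4.3.3 (lmFit, eBayes with trend) was fitted to log2(scaled count + 1) of all 2462 genes in 6 libraries. Genes with a mean of at least 100 scaled counts in the higher group were given by library, as were genes at 3 reads or fewer in all libraries of a group, genes whose call differed between limma and the count tests, and members of a listed ligand and receptor pair. Others were summarised, unless named after their values were seen. The members and lists were chosen with earlier results of these data known. An exact permutation test of 3 against 3 libraries cannot give a two-sided p under 0.1. Floors and read counts cover counting error only. Sequence windows came from RefSeq. On simulated data limma recovered 99.0% of 100 genes changed 4-fold among 2462 in this comparison. The changed genes had mean scaled counts of at least 10, and most genes were left unchanged. The rate therefore does not cover lower genes or a table of selected genes. Alternatives were TMM factors, no trend, pseudocounts of 0.1 and 10, a minimum mean of 10, a replicate block, treat, edgeR 4.0.16, DESeq2 1.42.0 and leaving out each library.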

Additional observations from a re-analysis of the deposited data

How the results depend on the processing

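With TMM factors, calls higher fell to 8 of the 33 genes, 3 ligands and 4 receptors, and IL1B (-0.25), IL1RAPL1 (-0.057), IL6 (-0.36), TNFRSF21 (-0.21) and TNFSF13 (-0.083) reversed. The reversed genes had increases smaller than the shift of the table's median, so that their reversal is no test of them. Over the whole table TMM called 585 genes higher and 721 lower, from 1703 and 718. With treat, 13 genes were called higher, 5 of them receptors, and 6 lower, 3 of them receptors, and the table had 1034 higher and 264 lower. A pseudocount of 10 left 3 receptors called lower, and 563 genes of the table. Leaving out 1 library gave 21 to 22 genes higher and 8 to 11 lower, 9 to 10 ligands higher and 4 lower, and 8 receptors higher and 4 to 6 lower. The whole table then had 1628 to 1667 genes higher and 571 to 699 lower. The 8 genes and 4 receptors called lower came without T24DDP replicate 3. A minimum mean of 10 left 30 genes, with no value for CCR2, IL1RL1 and TNFSF15. The cause of these changes was not tested. Same-numbered libraries had correlated deviations of 0.124, 0.024 and 0.181 over 2094 genes. Each T24 library correlated best with its own number, but T24DDP replicate 2 correlated better with T24 replicate 1 (0.109). These values do not settle whether the numbers pair the samples. The replicate block left 21 genes called higher and 11 lower, beside 1704 and 719 of the table. The genes with fewer than 10 reads per library limit the precision of their folds.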
